A study of Mus musculus with 4 samples.

Results

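Collagen is not functional as it leaves the ribosome. Within the endoplasmic reticulum, prolyl and lysyl residues of the procollagen chains are hydroxylated and the triple helix is held by a dedicated chaperone. Outside the cell, the propeptides are cut off and the fibrils are crosslinked by copper-dependent amine oxidases. In the nasal septum these steps take place mainly in the connective tissue under the olfactory epithelium and in bone and cartilage. Where in the tissue they took place was not measured. Here the expression of 10 genes of this pathway was followed from young adult to aged mice, from the prolyl 4-hydroxylase catalytic subunits (*P4ha1*, *P4ha2*, *P4ha3*), the lysyl hydroxylases (*Plod1*, *Plod2*) and the collagen chaperone HSP47 (*Serpinh1*) to the procollagen C-proteinase (*Bmp1*), its enhancer (*Pcolce*) and the lysyl oxidases (*Lox*, *Loxl1*). The genes were found through the accession numbers of the array probes, which gave 16 probes for the 10 genes among the 45604 genes tested. This total includes array entries that matched no gene symbol, each counted as a gene.

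Septal nasal mucosa, which the labels also call olfactory epithelium, was taken from C57BL/6J mice labelled male, of 8 weeks (young adult) or 16 months (aged), with no further treatment. RNA from 5 mice was pooled for each of 4 one-color arrays, 2 per age, and the methods list fewer mice per age for gene analyses than separate pools would take up. The pools of an age may therefore share mice, and P-values and SDs measure the spread between these pools only, which may be partly technical. The labels of all samples also carry a text on silica and lung, which matches neither their titles nor the described tissue and was set aside.

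Of the spots that carry gene probes, 63.1 to 76.8% were well above background on each array, and none was saturated. Markers of mature olfactory receptor neurons (ORNs) and of sustentacular cells were well above background on every array, as in mucosa that bears olfactory epithelium. *Xist*, a transcript of the inactive X chromosome, was well above background on all 4 arrays (612 to 645), and only 1 of 44 readings of Y-linked probes was, although the mice are labelled male. This held for both ages alike.

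The collagen chaperone gene *Serpinh1*, the lysyl oxidase gene *Loxl1* and the enhancer gene *Pcolce* fell in aged mice, by 1.4995- to 1.66-fold. These 3 passed both criteria of the study (P below 0.05 and a false discovery rate, FDR, below 0.25, by limma), and 2 of them, *Serpinh1* and *Loxl1*, were also downregulated DEGs, with a mean intensity over 100 and a change of 1.5-fold or more. No gene of the 10 was called higher by limma, at the FDR or at an unadjusted P below 0.05. Of all genes tested, 2.33% were called lower and 1.65% higher (3.98% in either direction), and 1.15% were downregulated and 0.814% upregulated DEGs. These shares include genes too dim to count as DEGs. Of the 25513 genes with a mean of at least 100, 3.28% were called lower. An unadjusted P below 0.05 by limma was reached by 5990 of the 45604 genes, counting both directions. In 7 of the 10 genes both aged pools lay below both young adult pools (21.8% of all genes), and in 9 the ages did not overlap in one direction or the other (46% of all genes). The median log2 fold change of the 10 genes was -0.39, beside 0.01 over all genes, and 8 of the 10 had a value below 0, beside 48.5% of all genes. Because RNA was taken from whole tissue, fewer cells of a type and less RNA per cell cannot be told apart in any of these differences.

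**Figure D1:**
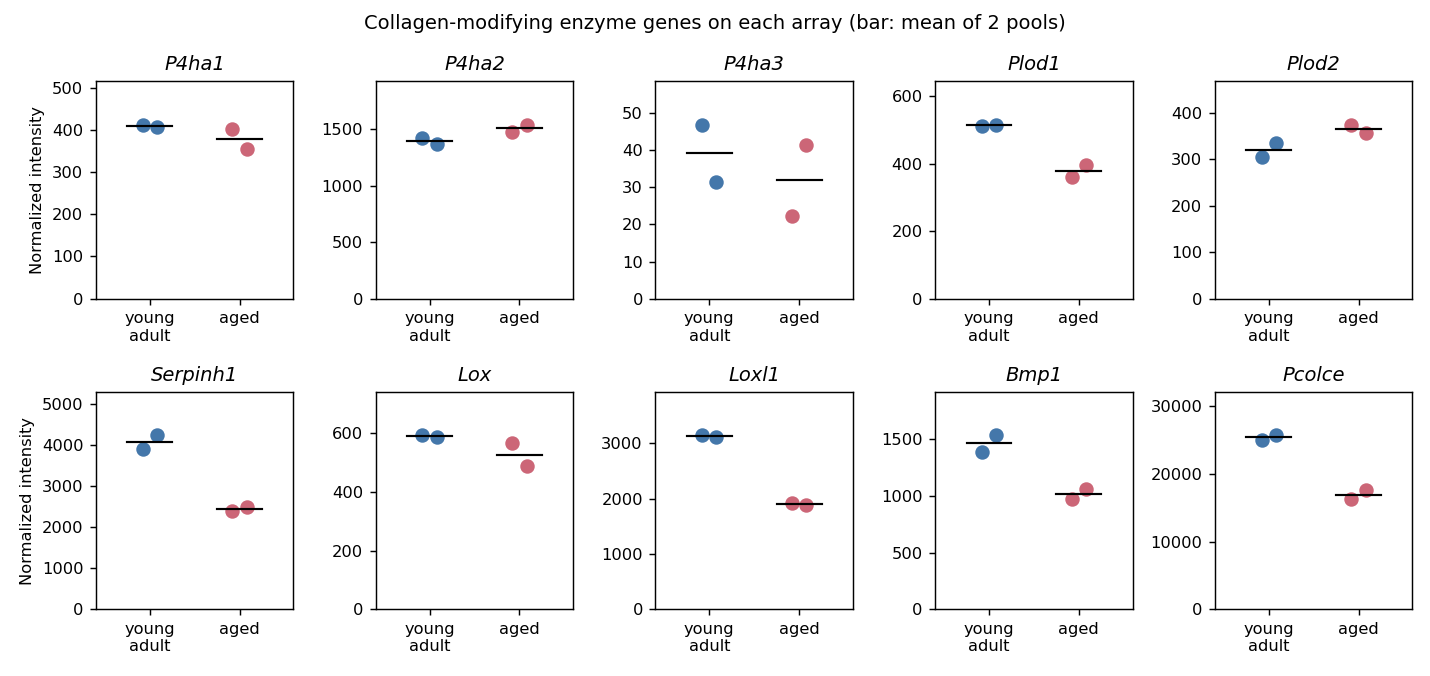
Normalized intensity (linear axis from 0) of the 10 genes on each array, with young adult pools in blue, aged pools in red and the mean of the 2 pools as a bar. *Serpinh1*, *Loxl1*, *Pcolce*, *Bmp1* and *Plod1* show both aged pools well below both young adult pools, and *P4ha3* is the one gene whose ages overlap.

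The promoters of *Serpinh1* (called lower), *Plod1* (lower, just past the FDR limit) and *P4ha2* (not lower) are shown to set members that moved apart side by side. Each is the 250 bases before the transcript start, read 5′ to 3′ on the strand of the gene, from RefSeq (GRCm38.p6), and capitals mark matches to the motifs searched. The windows are chr7:99353240-99353489 (minus strand) for *Serpinh1*, chr4:147936777-147937026 (minus strand) for *Plod1* and chr11:54100674-54100923 (plus strand) for *P4ha2*.
Serpinh1: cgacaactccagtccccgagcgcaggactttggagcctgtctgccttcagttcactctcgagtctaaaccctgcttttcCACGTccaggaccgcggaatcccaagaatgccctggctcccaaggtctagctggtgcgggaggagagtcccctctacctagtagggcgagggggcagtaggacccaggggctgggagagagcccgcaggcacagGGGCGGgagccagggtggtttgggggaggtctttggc
Plod1: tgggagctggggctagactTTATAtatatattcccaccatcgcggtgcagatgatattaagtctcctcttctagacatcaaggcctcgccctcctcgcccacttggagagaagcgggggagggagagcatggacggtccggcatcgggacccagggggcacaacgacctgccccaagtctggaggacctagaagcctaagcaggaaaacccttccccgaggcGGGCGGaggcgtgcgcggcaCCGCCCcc
P4ha2: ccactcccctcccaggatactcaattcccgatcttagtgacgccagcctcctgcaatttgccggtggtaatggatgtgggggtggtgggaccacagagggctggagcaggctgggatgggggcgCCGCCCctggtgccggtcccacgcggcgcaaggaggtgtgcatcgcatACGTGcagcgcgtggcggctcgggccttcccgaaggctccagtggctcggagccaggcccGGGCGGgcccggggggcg
The motifs were searched on both strands, and no motif contains another. The letters were ACGTG for the hypoxia response core, GAANNTTC for a heat shock element, CCAAT for the CCAAT box, GGGCGG for the GC box and TATAA for the TATA box. A window was found for 6 of the 10 genes (these 3 with *Pcolce*, *P4ha1* and *P4ha3*). The GC box was in all 6, beside 32.7% of 32851 windows in all. The 3 printed windows hold 61.6 to 70.0% G and C, and the share over all windows was not matched for this. The hypoxia response core was in 3, *Serpinh1*, *P4ha1* and *P4ha2*, beside 16.6%, and so in one gene that fell and in 2 that were not called. The TATA box was in 1, *Plod1*, beside 22.8%. None of the 6 held the letters of the heat shock element (6.69% of all windows) or of the CCAAT box (33.8%). These matches describe letters and no binding.

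Prolyl 4-hydroxylase makes the 4-hydroxyproline that keeps the triple helix stable at body temperature, and each enzyme holds one kind of catalytic alpha subunit. *P4ha1*, the most widely expressed of these subunits, had normalized intensities of 412 and 407 in the young adult pools and 402 and 355 in the aged pools. The ages did not overlap but lay close, with a log2 fold change of -0.12 (standard error 0.10, 95% confidence interval -0.42 to 0.18, FDR = 0.676 by limma). *P4ha2*, the subunit often found in cartilage and bone cells, gave 1419 and 1366 in young adult mice and 1479 and 1542 in aged mice. Both aged values lay above both young adult values, by 0.12 on the log2 scale (95% confidence interval -0.12 to 0.36, FDR = 0.611). *P4ha3* was dim, at 46.8 and 31.4 against 22.1 and 41.5, and the ages overlapped. Of its 2 probes, the brighter was well above background on 3 arrays and the other on none, so that no firm level can be given for it (log2 fold change -0.34, 95% confidence interval -1.59 to 0.91, FDR = 0.767). Without aged array 1 the sign for *P4ha3* turned, to 0.11.

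Lysyl hydroxylases prepare the lysines that later form crosslinks. *Plod1*, whose product acts on lysines within the triple helix, was at 512 and 516 in young adult mice and at 359 and 397 in aged mice. The ages were clearly apart, at a log2 fold change of -0.44 (95% confidence interval -0.72 to -0.17), but the FDR of 0.264 by limma lay just above the limit. *Plod2*, whose product acts on lysines of the telopeptides and so sets the kind of crosslink, was at 304 and 335 in young adult mice and at 375 and 356 in aged mice. Both aged values lay above both young adult values, but the log2 fold change of 0.19 did not pass the test (95% confidence interval -0.09 to 0.48, FDR = 0.509).

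*Serpinh1*, which encodes HSP47, the chaperone that binds procollagen in the endoplasmic reticulum, was at 3900 and 4242 in young adult mice and at 2398 and 2489 in aged mice. The mean fell from 4071 ± 242 to 2443 ± 64.5 (SD, n = 2 pools), which is 1.66-fold, or -0.74 on the log2 scale (95% confidence interval -1.003 to -0.47, FDR = 0.196 by limma). Only 2.59% of all genes had a log2 fold change this low or lower.

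*Bmp1* encodes the metalloproteinase that removes the C-propeptide of fibrillar procollagens, and *Pcolce* the secreted enhancer that binds the procollagen and speeds the cut. *Pcolce* was at 25067 and 25704 in young adult mice and at 16323 and 17554 in aged mice, well apart. Its log2 fold change was -0.58 (95% confidence interval -0.84 to -0.33, FDR = 0.210 by limma), so that it passed the P and FDR criteria, but the fold-change of 1.4995 stopped just short of the limit of 1.5 for a DEG. Each of the 2 *Pcolce* probes is spotted 10 times on every array. The probes gave log2 fold changes of -0.58 and -0.59, and spots of one probe on one array varied with an SD of 0.08 to 0.20. This SD is that of spots within an array and does not measure the spread between pools. Both probes were read on the same RNA.

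*Bmp1* was at 1394 and 1537 in young adult mice and at 978 and 1065 in aged mice, with no overlap. The log2 fold change of -0.52 (95% confidence interval -0.83 to -0.21) had an FDR of 0.257 by limma, just past the limit. Its 3 probes gave different values. The brightest had a log2 fold change of -0.66 (means of 4740 and 2995), and the dimmest, designed on a non-coding *Bmp1* transcript, one of -0.78 (619 and 361). The third had a log2 fold change of -0.12 (1075 against 992), and its ages overlapped. Which parts of the transcript the probes cover is not given in the files.

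Lysyl oxidases turn lysine and hydroxylysine side chains into the aldehydes from which crosslinks form in collagen and elastin. *Loxl1*, best known for its role in elastic fibres, was at 3144 and 3113 in young adult mice and at 1919 and 1890 in aged mice. The pools of each age were nearly equal, and the mean fell from 3129 ± 21.6 to 1904 ± 20.5 (SD, n = 2 pools). This is 1.64-fold, or -0.72 on the log2 scale (95% confidence interval -0.94 to -0.49, FDR = 0.185 by limma). *Lox*, the founding member of the family, was at 592 and 587 against 565 and 488. Its difference of -0.17 on the log2 scale (95% confidence interval -0.50 to 0.16, FDR = 0.599) did not pass the test, and its 2 probes gave -0.22 and -0.12.

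**Figure D2:**
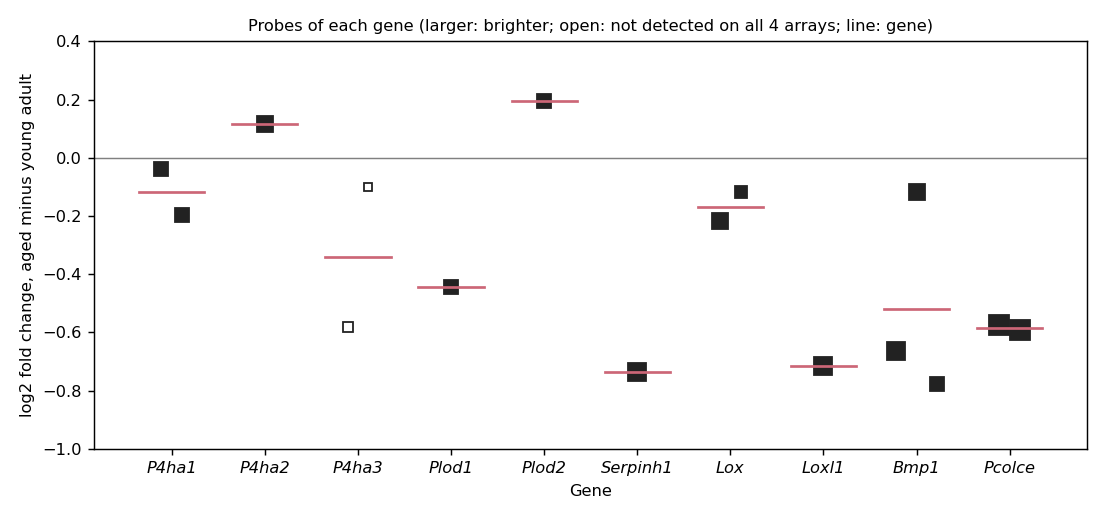
Log2 fold change (aged minus young adult) of each probe of the 10 genes as squares, larger for brighter probes and open where the probe was not well above background on all 4 arrays, with the value of the gene as a red line. The probes of *Pcolce* coincide near -0.58, while those of *Bmp1* range from -0.78 to -0.12.

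One slide held array 1 of both ages, and each remaining array came from a separate slide. Within the shared slide the log2 differences were -0.70 for *Serpinh1*, -0.71 for *Loxl1*, -0.62 for *Pcolce*, -0.51 for *Bmp1* and -0.51 for *Plod1*. Between the other arrays they were -0.77, -0.72, -0.55, -0.53 and -0.38. All 5 genes were thus lower in both comparisons, each of 1 array per age and without a test. Of the 5, the amounts were least alike for *Plod1*. For *Plod2* the differences were 0.30 on the shared slide and 0.09 between the other arrays, for *P4ha2* 0.06 and 0.17, for *P4ha1* -0.04 and -0.20 and for *Lox* -0.07 and -0.27. *P4ha3* changed sign, from -1.08 to 0.40.

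Whether *Serpinh1*, *Loxl1*, *Pcolce*, *Bmp1* and *Plod1* were called depended on the setting, and all 5 stayed lower in each setting tried. In the 11 other settings that used all 4 arrays, *Serpinh1*, *Loxl1* and *Pcolce* were called lower in 10 and lost the call with the replicate number as a block (FDR = 0.433 for each by limma), where no gene of the whole array was called. *Plod1* and *Bmp1* were called lower in 7 of these 11, among them larger background offsets and cyclic loess. With young adult array 1 or 2 or aged array 1 or 2 left out, 1 array remained for an age and the spread came from the other age alone, and no gene of the whole array was called, so that the lost calls are not particular to these genes. The log2 fold changes were then -0.80 to -0.67 for *Serpinh1*, -0.73 to -0.71 for *Loxl1* and -0.64 to -0.53 for *Pcolce*.

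**Figure D3:**
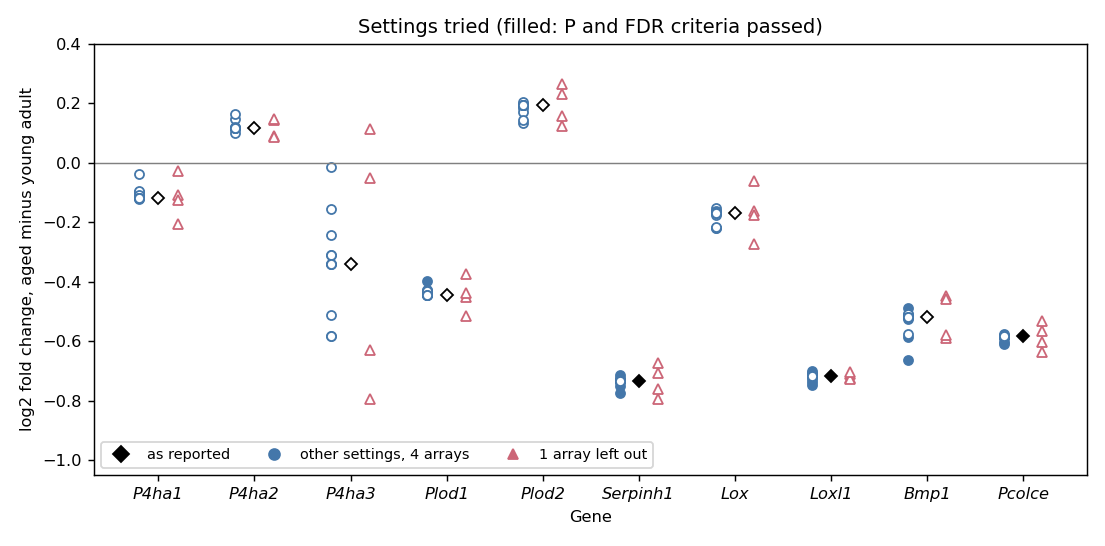
Log2 fold change (aged minus young adult) of the 10 genes as reported (diamonds), in the other settings with all 4 arrays (circles) and with 1 array left out (triangles), filled where the P and FDR criteria were passed. *Serpinh1*, *Loxl1* and *Pcolce* lie below -0.5 in every setting, and no triangle is filled.

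Within pairs of related genes, the log2 difference was followed from array to array. That between *Plod2* and *Plod1* was -0.75 and -0.62 in young adult mice and 0.06 and -0.16 in aged mice, a shift of 0.64. That between *Lox* and *Loxl1* was -2.41 and -2.41 in young adult mice and -1.76 and -1.95 in aged mice, a shift of 0.55. For *P4ha2* and *P4ha1* the shift was 0.23, and for *Pcolce* and *Bmp1* it was -0.06. The latter rests on the average of the *Bmp1* probes, whose own log2 fold changes ran from -0.78 to -0.12. On this average only, the values of the proteinase and its enhancer differed by nearly the same amount at both ages. These 4 pairs were chosen after their values were seen. In each, the exact two-sided permutation test gave P = 0.33, the smallest value that 2 arrays against 2 allow.

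Fibrillar collagens are among the proteins that the products of these genes act on, beside others such as elastin for the lysyl oxidases. Of 11 fibrillar collagen genes, 7 were called lower by limma and 0 higher (7 and 0 at an unadjusted P below 0.05), and the median log2 fold change was -1.15. These were *Col1a1* (-1.98), *Col3a1* (-1.97), *Col2a1* (-1.84), *Col1a2* (-1.52), *Col5a1* (-1.50), *Col11a1* (-1.15) and *Col5a2* (-0.58). *Col27a1* (-0.09) and *Col5a3* (-0.40) had the smallest values among those with a mean of at least 100 and were not called. Set against *Col1a1* on the same array, each of the 10 genes was higher in both aged pools than in both young adult pools. The shift ran from 1.24 on the log2 scale for *Serpinh1* and 1.26 for *Loxl1* to 2.09 for *P4ha2* and 2.17 for *Plod2*. Set against *Col1a2*, which had a smaller difference than *Col1a1*, it ran from 0.78 for *Serpinh1* and 0.80 for *Loxl1* to 1.71 for *Plod2*. Both collagens fell more than any of the 10 genes, so the direction of every shift was set by the choice of reference. Such a ratio shows unequal change only, and the exact two-sided permutation test again gave its smallest possible value, 0.33, for each gene.

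Of 25 other genes of collagen maturation, 3 were called lower by limma and 0 higher (8 and 1 at an unadjusted P below 0.05), with a median log2 fold change of -0.23. *Loxl2*, a further lysyl oxidase, fell from 1263 ± 30.9 to 630 ± 3.66 (SD, n = 2 pools), about 2-fold (FDR = 0.178 by limma). *Fkbp10*, whose product FKBP65 works with HSP47 and lysyl hydroxylase 2 in the endoplasmic reticulum, fell from 4346 ± 188 to 2394 ± 59.1 (-0.86, FDR = 0.184). *P3h3*, a member of the prolyl 3-hydroxylase family, had a log2 fold change of -0.42 (FDR = 0.240). The third lysyl hydroxylase gene, *Plod3* (0.03), and *Sec24d* (0.03), a coat protein of the vesicles that carry procollagen, had the smallest values.

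Some partners of the 10 genes are named here for their role, after their values were seen. *P4hb*, the beta subunit that every prolyl 4-hydroxylase needs, had a log2 fold change of -0.21 (FDR = 0.494), and *P3h1*, *Crtap* and *Ppib*, which form the prolyl 3-hydroxylation complex, had values of -0.31, -0.29 and -0.32 (FDR from 0.325 to 0.378). *Adamts2*, which removes the N-propeptide, was at 461 ± 41.4 against 299 ± 29.6 (-0.63, FDR = 0.263). *Pcolce2*, a relative of *Pcolce*, had a log2 fold change of 0.37 (FDR = 0.286), with both aged values (13561 and 14508) above both young adult values (11078 and 10575).

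**Figure D4:**
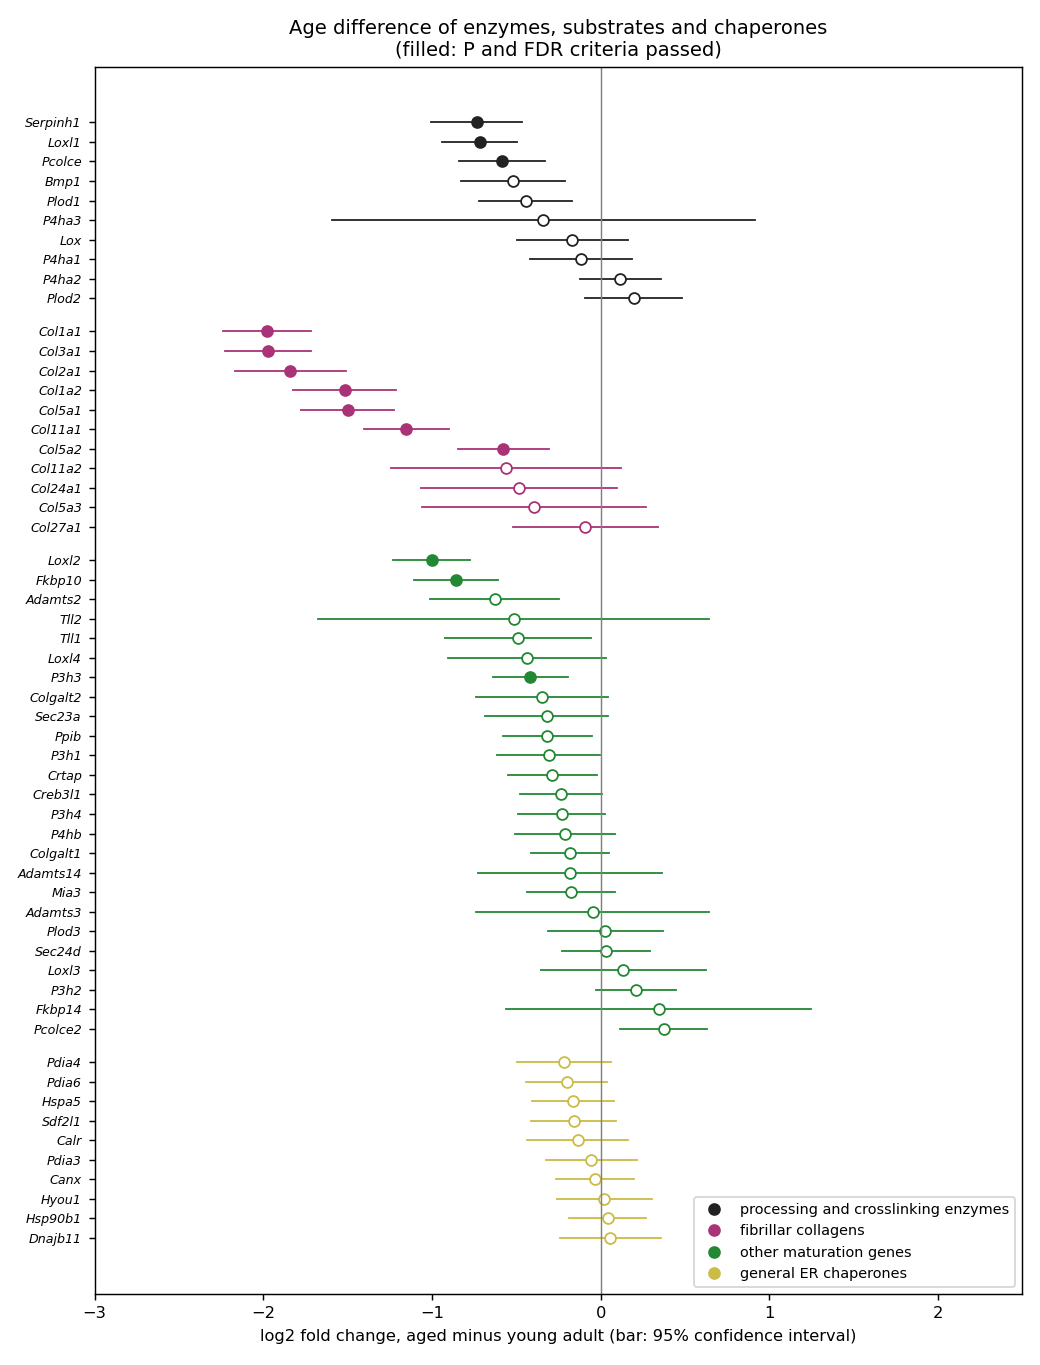
Log2 fold change (aged minus young adult) with its 95% confidence interval for the 10 processing and crosslinking genes (black), 11 fibrillar collagens (purple), 25 other maturation genes (green) and 10 general chaperones of the endoplasmic reticulum (yellow), filled where the P and FDR criteria were passed. The fibrillar collagens reach -1.98, *Serpinh1* lies at -0.74, and the general chaperones stay between -0.22 and 0.06.

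General chaperones of the endoplasmic reticulum serve all secreted proteins, not collagen alone. Of 10 such genes, limma called 0 lower and 0 higher, none had an unadjusted P below 0.05, and the median log2 fold change was -0.10. *Hyou1* (0.02) and *Canx* (-0.03) were closest to 0. Of 12 genes known to respond to hypoxia, which also raises *P4ha1*, *P4ha2*, *Plod2* and *Lox* in many cells, 2 were called lower and 0 higher (4 and 1 at an unadjusted P below 0.05). These were *Ldha* (-0.64) and *Egln3* (-0.56), with *Bnip3* (0.07) and *Egln1* (0.10) closest to 0.

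Some markers of cell types that make or surround collagen were lower alongside *Serpinh1*, *Loxl1* and *Pcolce*, and most fibroblast and cartilage markers did not pass the test. Of 9 fibroblast markers, 3 were called lower (*Dpt*, *Lum* and *Pi16*) and 0 higher. The summed intensity of all 9 was 90104 to 102530 in young adult mice and 78159 to 83505 in aged mice. Most of this sum was *Dcn*, whose ages overlapped (79509 and 66063 in young adult, 66826 and 60593 in aged mice). The brightest of the 9 were *Dcn* (-0.19 on the log2 scale), *Lum* (-0.70) and *Thy1* (0.03). Of 10 osteoblast and osteocyte markers, 6 were called lower (*Spp1*, *Ibsp*, *Alpl*, *Bglap*, *Dmp1* and *Runx2*), and the sum was 16879 to 16965 against 7737 to 7832, with *Spp1* (-1.33), *Bglap* (-0.94) and *Alpl* (-0.98) the brightest and *Sost* not well above background. Of 9 cartilage markers, 1 was called lower (*Acan*, -1.30), the brightest were *Comp*, *Sox9* and *Chad*, and no array showed *Matn1* or *Matn3* well above background. The sum was 4890 to 4982 against 3908 to 4022.

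Markers of other cell types are given by their counts and sums, which overlapped between the ages for smooth muscle and pericytes. Of 6 endothelial markers, 3 were called lower (*Kdr*, *Tie1* and *Emcn*). The brightest were *Emcn*, *Kdr* and *Cdh5*, and the sum of all 6 was 5214 to 5270 against 3340 to 3487. Of 6 macrophage markers, 2 were called lower (*Cd68* and *Mrc1*). The brightest were *Csf1r*, *C1qa* and *Cd68* (sum of all 6 6888 to 7263 against 5308 to 5419). Of 6 smooth muscle and pericyte markers, 2 were called lower (*Myh11* and *Cnn1*). The brightest, *Tagln*, *Rgs5* and *Acta2*, were not called (sum of all 6 51921 to 53661 against 51643 to 52748). Of 8 ORN markers, 1 was called higher (*Stoml3*). The brightest were *Omp*, *Gnal* and *Stoml3* (sum of all 8 454170 to 465200 against 509190 to 516640). Most of this sum was *Omp*, which was not called. In tissue sections the paper counted fewer OMP-positive ORNs in aged mice, which is a measure of cells and not of RNA. Of 6 sustentacular markers, 1 was called higher (*Cyp1a2*). The brightest, *Cyp2a5*, *Cyp2g1* and *Cbr2*, were not called (sum of all 6 826360 to 829420 against 849390 to 860950). The part of cell composition in the falls of the collagen-modifying genes was not tested.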

How the data were processed

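RNA of septal nasal mucosa was labelled with Cy3, and 4 Agilent one-color arrays were scanned by the authors and extracted with Feature Extraction 11.0.1.1. The deposited intensities are the median brightness of each spot and of its local background, and a background-subtracted processed intensity, without normalization between arrays. The deposited series table holds this processed intensity unchanged (62976 spots an array).

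Background was removed from the median spot signal with limma 3.58.1 (R 4.3.3) by the normexp method, at offset 0. Control spots and outlier-flagged spots (88 to 118 per array) were removed, spots of a probe averaged, arrays quantile normalized and probes of a gene averaged on the log2 scale. Genes lacking a value on any array were left out. Unversioned accessions were matched to RefSeq (GRCm38.p6), naming 58.3% of 56605 probes. The other probes kept their names on the array and were counted as genes under those names. The arrays are built on mm9, so no gene coordinates were taken over. Quantile normalization, averaging and thresholds follow the paper's methods, which name no offset. limma (lmFit, eBayes) was run on all 4 arrays without covariates, with the FDR by Benjamini-Hochberg over 45604 genes, and was checked on simulated data. A gene's moderated spread combined 2 residual and 1.38 prior degrees of freedom. A DEG also needed a mean of at least 100 and a fold-change of at least 1.5. Levels are mean normalized intensities. The number of arrays limits the precision.

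The 10 genes, the gene lists and the tests were chosen with earlier results of these data known. Named are all 10 genes, the genes of the pathway lists that passed the criteria, the 2 least changed of each such list with a mean of at least 100, and the 3 brightest markers of each cell type. Partners, gene pairs and further markers were named after their values were seen. Alternatives covered the background, normalization, probe handling, variance model, replicate number, thresholds, the shared slide and each array left out.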

Additional observations from a re-analysis of the deposited data

How the results depend on the processing

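The number of arrays limits these results, and so does the low signal of dim probes. All 10 genes kept their direction in every setting, except that *P4ha3* had a log2 fold change of 0.11 without aged array 1 (with 1 array left out, from -0.79 to 0.11). With larger offsets, 5 of the 10 genes were called lower (3 as reported), and so they were with the quantile-normalized processed signal, cyclic loess, only probes well above background, the brightest probe per gene or an intensity trend. Genes called lower over the whole array rose too, from 1063 as reported to 1691 and 2475 with offsets of 16 and 50. They were 2343 with the quantile-normalized processed signal, 1378 with cyclic loess, 1411 with the brightest probe and 3518 with the trend. With only probes well above background, 3706 of 29495 genes were called lower. The 75th percentile scalings, with either signal, and keeping flagged spots left the P and FDR calls of the 10 genes as reported. With the quantile-normalized processed signal, 4 of them were DEGs (2 as reported), and 3 were with either 75th percentile scaling, cyclic loess, the brightest probe or flagged spots kept. At an FDR below 0.05 limma called 0 of the 10 lower (5 at an unadjusted P below 0.05). No gene of the whole array passed that limit, the smallest FDR being 0.0945, so this 0 is not particular to these genes. At a 2-fold limit 0 of the 10 were DEGs.

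The genes called in all, 1817 of 45604 as reported, were 2989 and 4582 with offsets of 16 and 50. They were 4372 with the quantile-normalized processed signal, 2332 with cyclic loess, 2415 with the brightest probe and 7130 with an intensity trend. With only probes well above background they were 7151, out of fewer genes tested (29495). Other maturation genes called lower, 3 as reported, were 6 with an offset of 50, 14 with only probes well above background and 12 with the trend. General chaperones called lower, 0 as reported, were 2 and 4 in the latter settings. Hypoxia-responsive genes called lower, 2 as reported, were 4 with an offset of 50, with the brightest probe or with the trend, and 5 with only probes well above background. The median log2 fold change of the 10 genes, -0.39 as reported, was -0.34 and -0.28 with offsets of 16 and 50, -0.48 with the quantile-normalized processed signal, -0.32 with that signal scaled to the 75th percentile, -0.48 with only probes well above background and -0.51 with the brightest probe. The cause of these shifts was not tested.

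With 1 array left out, where the lone array of an age is assumed to vary like the other age, limma called 0 genes in all (lowest and highest 0), so that each count above was 0, and the median of the 10 genes lay between -0.55 and -0.31. The replicate number, which the labels do not tie to a shared litter or day, was also fitted as a block: it left 0 genes called in all, and so 0 of the 10 genes, 0 DEGs among them, 0 other maturation genes, 0 fibrillar collagens and 0 hypoxia-responsive genes. Deviations of same-numbered arrays correlated at -0.08. A random block for slide could not be fitted, because limma gives no correlation from 4 arrays.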
